A study of Mus musculus with 8 samples.

Results

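Interferon-stimulated genes and the sensors of double-stranded RNA (dsRNA) were examined as a module of 46 genes in RNA-seq counts of tumor-infiltrating T cells (TILs, gated as CD8+CD44+PD-1+) that lack the histone demethylase LSD1. The genes were named by symbol as known members, and the list was drawn up with earlier results of these data known. All 46 were found among the 55335 genes of the count table, and all 46 were among the 15378 genes kept for testing. The samples were 4 wildtype (WT, *Lsd1*f/f) and 4 knockout (KO, *Cd4-Cre*+*Lsd1*f/f) pools of TILs sorted from MC38 tumors. MC38 is a colon cancer line of the mouse, implanted here under the skin of C57BL/6 mice aged 6 to 10 weeks. *Cd4-Cre* removes the floxed gene in developing T cells, so CD4+ as well as CD8+ T cells of the host lacked LSD1, while the tumor cells did not. A WT sample joined the cells of 2 mice and a KO sample held those of 1 mouse, with 10000 to 20000 sorted cells in each. The methods give day 18 after implantation and the deposited design text gives day 14. WT samples carry the names S1 to S4, and KO samples S5 to S8.

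Type I interferons bind the IFNAR receptor and lead, through the kinases JAK1 and TYK2, to a complex with STAT2 and IRF9 that binds the interferon-stimulated response element (ISRE) at the promoters of antiviral genes. Interferon gamma, which activated CD8+ T cells themselves secrete, acts mainly through the gamma-activated site (GAS). RIG-I, MDA5, PKR, ZBP1 and the OAS enzymes detect dsRNA or other unusual nucleic acids in the cell, and loss of LSD1 in some tumor lines is known to raise endogenous dsRNA and interferon signaling. Whether such genes moved in T cells without LSD1 is the question here.

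The promoters of the genes are shown first, because the ISRE and the GAS tie the module to both interferon types. RefSeq promoters (GRCm38.p6, 250 bases before to 50 bases after a start site, 300 in all) were found for 34 of the 46 genes. *Ifi27l2a*, *Mx1*, *Mx2*, *Oas2*, *Dhx58*, *Zbp1*, *Usp18*, *Rtp4*, *Gbp4*, *Iigp1*, *Parp9* and *Parp14* were not matched. The ISRE core was searched as GAAANNGAAA and the GAS core as TTCNNNGAA, on both strands. The ISRE core was in the promoters of 18 of the 34 genes (52.9%), against 3.99% of 27025 genes in the whole table, and the GAS core was in 13 of 34 (38.2%), against 9.55%. Among the GTPase genes 7 of 8 held an ISRE core, among the antiviral effectors 4 of 11. The stretches below come from the start regions of genes whose RNA moved in different ways in KO samples, and they run 5′ to 3′ along the gene. Capitals mark every ISRE core match in the stretch, and for *Samhd1* and *Irf1*, which held no ISRE core, the GAS core. A stretch has 60 bases where those touch no annotated exon, and 30 bases otherwise.
*Ifih1* (chr2:62646206-62646235, minus strand): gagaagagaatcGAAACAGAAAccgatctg
*Stat2* (chr10:128270251-128270310, plus strand): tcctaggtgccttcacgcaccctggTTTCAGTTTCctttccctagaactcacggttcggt
*Gbp3* (chr3:142559992-142560021, plus strand): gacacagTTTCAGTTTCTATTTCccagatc
*Igtp* (chr11:58199512-58199541, plus strand): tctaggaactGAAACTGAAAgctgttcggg
*Isg15* (chr4:156200856-156200915, minus strand): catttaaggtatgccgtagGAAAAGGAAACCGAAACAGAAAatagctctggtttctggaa
*Oas1a* (chr5:120907523-120907552, minus strand): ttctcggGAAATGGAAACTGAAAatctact
*Oas3* (chr5:120777700-120777759, minus strand): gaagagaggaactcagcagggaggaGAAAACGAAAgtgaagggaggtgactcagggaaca
*Ifit3* (chr19:34583365-34583424, plus strand): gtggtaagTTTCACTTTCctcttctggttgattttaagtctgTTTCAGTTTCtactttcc
*Rsad2* (chr12:26456538-26456597, minus strand): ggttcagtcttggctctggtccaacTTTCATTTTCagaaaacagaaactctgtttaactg
*Samhd1* (chr2:157135287-157135346, minus strand): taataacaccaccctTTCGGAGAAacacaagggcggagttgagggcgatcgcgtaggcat
*Irf1* (chr11:53769898-53769957, plus strand): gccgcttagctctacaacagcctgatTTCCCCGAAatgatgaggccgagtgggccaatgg

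Genes with an ISRE core stood among those that were higher in KO samples (*Ifih1*, *Stat2*, *Gbp3*), those that were lower (*Oas1a*) and those that missed every threshold (*Isg15*, *Ifit3*, *Rsad2*). The match in *Ifih1* began 32 bases after the RefSeq start, in a stretch that touches an annotated *Ifih1* exon, whereas the matches in *Gbp3*, *Igtp*, *Isg15*, *Oas1a*, *Oas3*, *Ifit3*, *Rsad2* and *Stat2* lay before the start. The promoter windows of *Irf9*, *Oasl1*, *Oasl2*, *Irf7*, *Trim25*, *Ifi44*, *Ifi47*, *Xaf1*, *Cmpk2* and *Dtx3l* held neither core. A match is a string of letters in a window, and binding was not measured here.

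**Figure D1:**
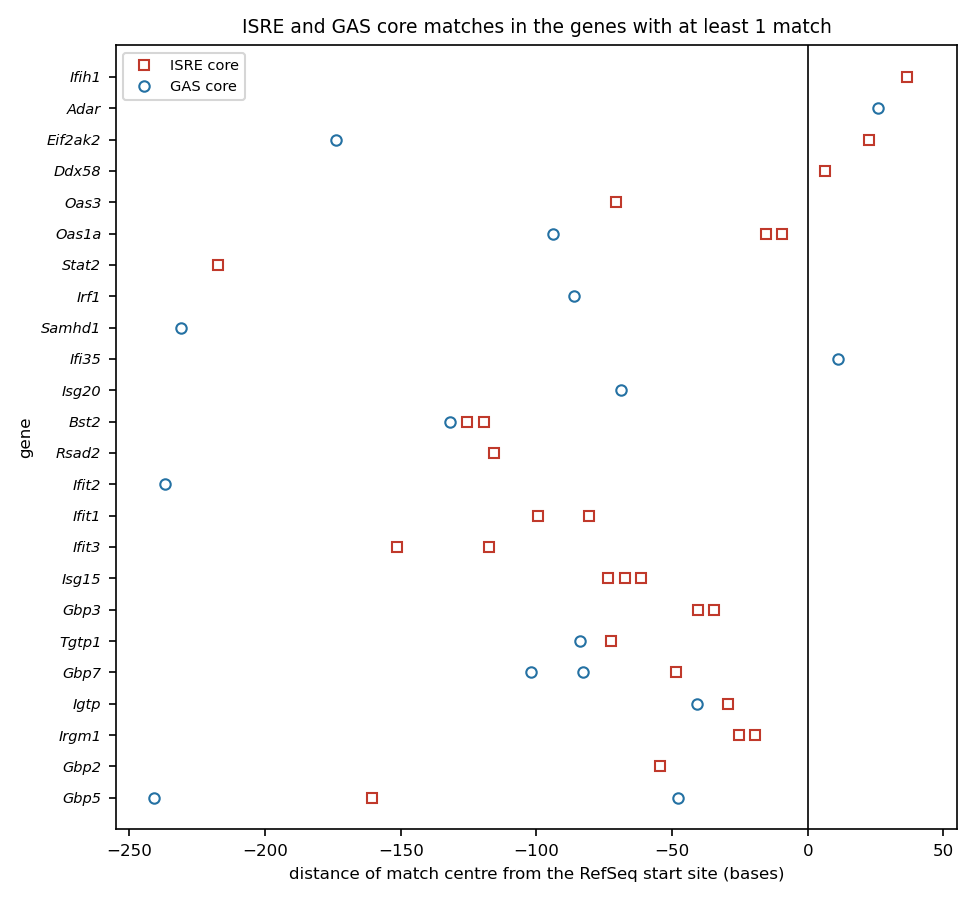
Position of each ISRE core match (red squares) and GAS core match (blue circles) relative to the RefSeq start site in bases (x axis, 0 is the start), for the 24 genes with at least 1 match in their promoter window (y axis). Of 26 ISRE core matches, 23 lie wholly before the start.

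Across the series, counts on genes summed to 11657807 to 30295406 per sample, and the limit that 3 counts allow was 0.106 to 0.25 CPM (counts divided by library size, with edgeR's TMM factors), for counting error alone. *Kdm1a*, the gene of LSD1, had a mean of 44.9 CPM in WT (SD 1.87, n = 4) and of 30.7 CPM in KO samples (SD 4.03, n = 4), with all 4 KO samples below all 4 WT samples. T cell genes were abundant in both groups, with *Cd8a* at 1340 and 1109 CPM and *Pdcd1* at 609.5 and 485.6 CPM in WT and KO samples. Transcripts of myeloid cells, which the sort should remove, differed between the groups. The summed level of 19 myeloid marker genes was 519 to 1569 CPM in WT samples, highest in S3, and 245 to 360 CPM in KO samples, and 14 of the 19 were called lower in KO samples. *Ms4a7* was at 0 in S7 and *Tyrobp* at 0 in S8, and the other markers were detected in all 8 samples. Of the remaining lists, 2 of 5 plasmacytoid dendritic cell, 2 of 5 B cell, 3 of 4 NK cell, 1 of 5 epithelial and 2 of 5 stromal markers passed the filter on low counts. In KO samples 1 plasmacytoid dendritic cell marker (log2 fold change 2.63) and 1 stromal marker (1.48) were called higher, against 2.91% of all genes. The other tested marker of each of these lists went the other way without passing the test (-1.67 and -0.7), so neither list moved as a whole. At an adjusted p under 0.05, 1 NK cell marker was higher and 1 lower, and no B cell or epithelial marker passed. The part of such cells in the module was not tested. *Cd4* and *Cd40lg* of helper T cells were at 4.54 and 2.29 CPM in WT and at 14.3 and 12.3 CPM in KO samples. On the second principal component S5 and S6 stood apart on opposite sides (41.9 and -39.3), with the other 6 samples between -5.7 and 5, and S8 had the highest total.

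The module did not move in a single direction. A gene was called where its fold exceeded 1.5 and its adjusted p was below 0.01 (edgeR's quasi-likelihood test, Benjamini-Hochberg adjustment over 15378 genes). By this rule *Usp18*, *Samhd1* and *Ifih1* rose and *Oas1a* fell in KO samples. The 3 higher genes are 6.52% of the 46, against 2.91% of all genes tested, and the lower gene is 2.17%, against 1.99%. At an adjusted p under 0.05 with any fold, *Irf9*, *Stat2*, *Adar*, *Parp14* and *Gbp3* were also higher and *Oasl2* was also lower. This gave 8 higher genes (17.4%, against 6.31% of all genes) and 2 lower genes (4.35%, against 4.98%). Every KO sample lay above every WT sample for 7 of the 46 genes (15.2%, against 8.99%) and below for 1 gene (2.17%, against 8.28%). The median log2 fold change of the 46 genes was 0.08, against -0.01 for all genes, with 26 above and 20 below 0, and 48.6% of all genes were above 0. With 4 samples against 4, an exact permutation test of a single gene cannot give a p below 0.0286.

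**Figure D2:**
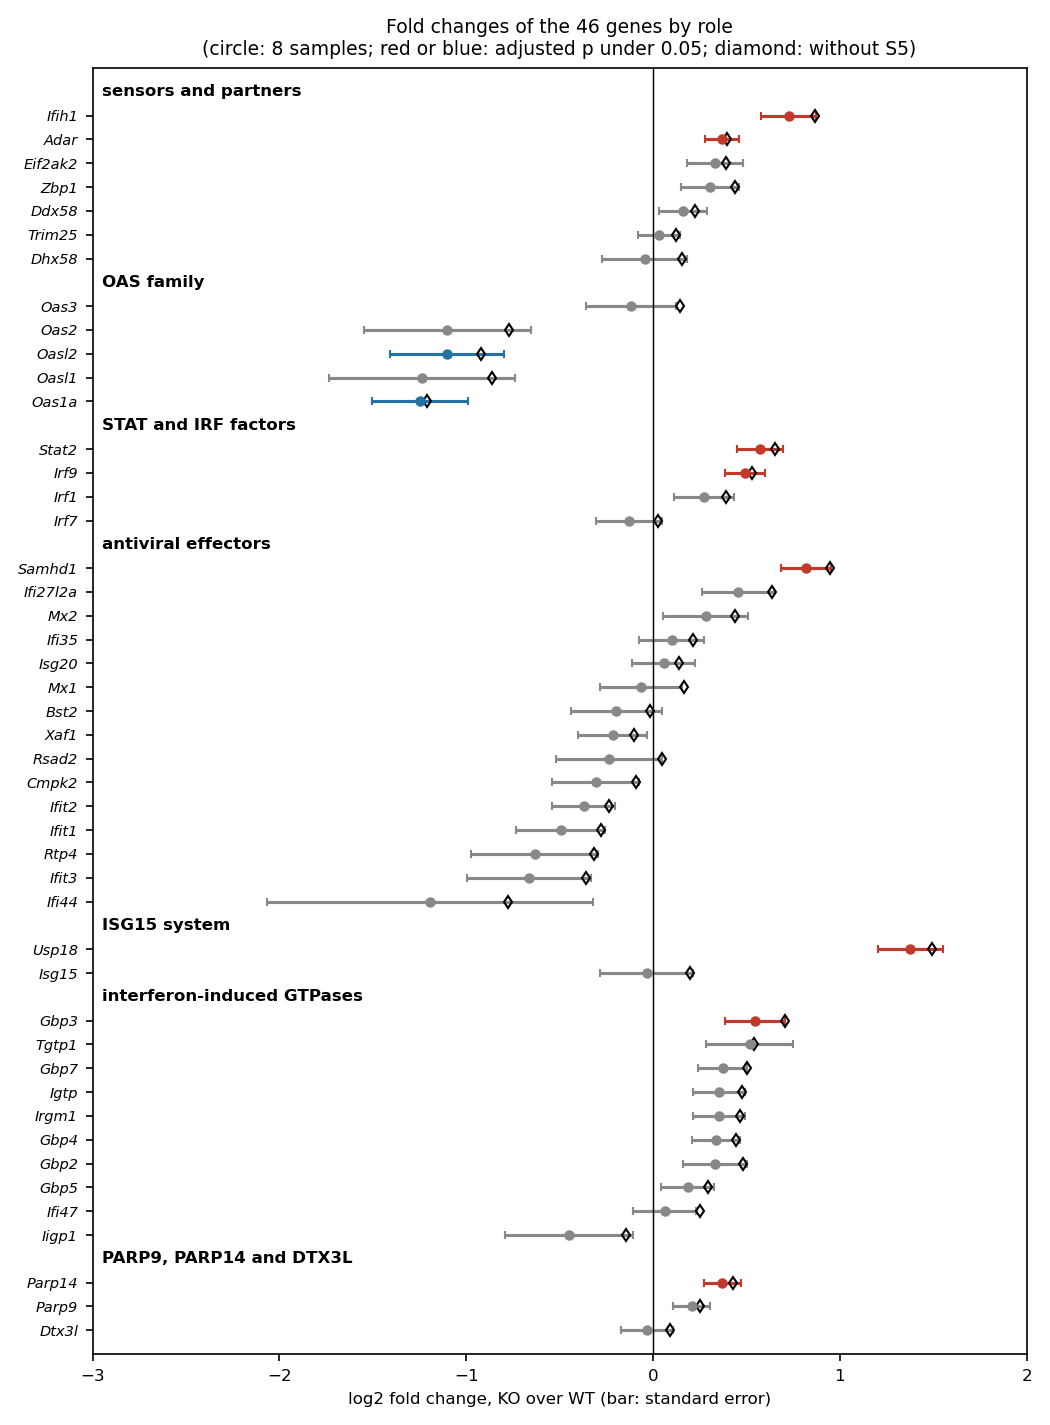
The log2 fold change of KO over WT (x axis) of each of the 46 genes by role (y axis), as circles with standard errors from the fit over 8 samples, in red where higher and blue where lower at an adjusted p under 0.05. Open diamonds give the fit without S5. All 5 OAS genes of the module lie below 0 with 8 samples, and *Oas3* moves to 0.14 without S5.

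Among the 7 sensors and their partners, 2 were higher at an adjusted p under 0.05 (6.31% of all genes were) and 6 of 7 had a log2 fold change above 0 (48.6% of all genes had). *Ifih1* (chromosome 2, 62595798 to 62646255) encodes MDA5, the helicase that binds long dsRNA. Its level was 58.3, 49.2, 67.0 and 58.6 CPM in S1 to S4 and 67.3, 103.8, 109.6 and 104.6 CPM in S5 to S8. The groups did not overlap, but S5 lay only just above the highest WT sample, while the other 3 KO samples were well above all of WT. The log2 fold change was 0.73 (standard error, SE, 0.15, adjusted p = 0.00373 from edgeR, exact permutation p = 0.0286), and 0.87 without S5. The adjusted p crossed 0.01 when S1, S2, S4, S6, S7 or S8 was left out, with 0.0209 as the highest, and was 2.03e-04 without S5.

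*Adar* (chromosome 3, 89715022 to 89753446) encodes the enzyme that edits adenosines in dsRNA and so keeps self RNA from being sensed. It was at 168.4, 157.8, 157.0 and 151.4 CPM in WT and at 192.7, 199.5, 221.8 and 205.2 CPM in KO samples. This gene varied little within either group, and all KO samples were above all WT samples by a modest margin (log2 fold change 0.37, SE 0.09, adjusted p = 0.0146 from edgeR, and 0.0579 without S7). The remaining sensors did not pass the test. *Ddx58* (RIG-I) lay at a log2 fold change of 0.16 ± 0.13 (SE, adjusted p = 0.499 from edgeR), *Eif2ak2* (PKR, which halts translation on dsRNA) of 0.33 ± 0.15 (adjusted p = 0.187) and *Zbp1* of 0.31 ± 0.15 (adjusted p = 0.238). *Trim25*, the ubiquitin ligase that acts with RIG-I, was at 0.03 ± 0.11, and *Dhx58* (LGP2) at -0.04 ± 0.23.

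The 5 OAS genes of the module belong to a family whose enzymes make the second messenger that activates RNase L when dsRNA is bound. All 5 had a log2 fold change below 0 with a median of -1.10, while 48.6% of all genes lay above 0. At an adjusted p under 0.05, 2 of the 5 were lower (4.98% of all genes were). *Oas1a* (chromosome 5, 120896256 to 120907521) was at 20.9, 12.8, 12.6 and 14.6 CPM in WT and at 5.91, 4.61, 7.76 and 7.28 CPM in KO samples. The KO samples lay below all of WT, and S1 was the highest WT sample (log2 fold change -1.25, SE 0.26, adjusted p = 0.00397 from edgeR, exact permutation p = 0.0286). The SD of log2 CPM was 0.338 in WT and 0.333 in KO samples. The adjusted p was 0.0106 to 0.0194 when S1, S4, S5 or S6 was left out and stayed under 0.01 without any of the others. Reads of the near-identical Oas1 copies may have been divided among them. *Oas1b*, a copy outside the module, went the other way without passing the test (20.6 ± 6.39 CPM in WT and 29.7 ± 3.64 CPM in KO samples, SD, n = 4, log2 fold change 0.53, SE 0.21, adjusted p = 0.115 from edgeR), and *Oas1c* was at -0.13 ± 0.21 on the same scale.

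*Oasl2* (chromosome 5, 114896936 to 114912234), which encodes an OAS-like protein, was at 24.0, 16.5, 27.7 and 14.3 CPM in WT and at 5.78, 5.82, 12.2 and 14.3 CPM in KO samples. S5 and S6 were far below WT, whereas S8 was level with the lowest WT sample (log2 fold change -1.10, SE 0.30, adjusted p = 0.0261 from edgeR). Its adjusted p was 0.0652 to 0.0939 when S1, S3, S5 or S6 was left out. *Oasl1* (chromosome 5, 114923240 to 114937915), an OAS-like protein that restrains IRF7 translation, was at 11.9, 16.7, 11.6 and 9.49 CPM in WT and at 0.53, 5.90, 4.42 and 9.95 CPM in KO samples. Its value in S5 rests on 8 counts, and S8 lay within the WT range. It did not pass the test (log2 fold change -1.24, SE 0.50, adjusted p = 0.127 from edgeR). *Oas2* had a similar log2 fold change of -1.10 ± 0.45 (SE, adjusted p = 0.131 from edgeR), and *Oas3* was at -0.12 ± 0.24.

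The lower OAS levels ran beside the lower myeloid markers in KO samples, and the part of one in the other was not tested by sorting or by single cells. Among the WT samples, *Oasl2* and *Oas3* were highest in S3 (27.7 and 123.6 CPM), which had the highest myeloid sum (1569 CPM). *Oas1a* and *Oas2* were highest in S1 (20.9 and 22.6 CPM), which had the lowest (519 CPM), and *Oasl1* was highest in S2 (16.7 CPM). With the mean log2 CPM of the myeloid markers as a covariate no gene of the 46 passed either rule, and 28 genes higher and 2 lower were left of 447 and 306 over all genes. The log2 fold changes of *Oas1a*, *Oasl1* and *Oasl2* were then -2.32, -2.69 and -1.68 (adjusted p = 0.162, 0.539 and 0.541 from edgeR). Without the covariate they were -1.25, -1.24 and -1.10. The markers did not overlap between the groups in summed level, so genotype and marker level cannot be told apart in that fit. Fewer transcribing cells and less RNA per cell cannot be told apart in bulk samples either.

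Among the 4 STAT and IRF genes, *Stat2* and *Irf9* were higher at an adjusted p under 0.05 (6.31% of all genes were). Both encode parts of the complex that binds the ISRE. *Stat2* (chromosome 10, 128270559 to 128292849) was at 123.5, 106.8, 115.9 and 86.0 CPM in WT and at 134.1, 159.7, 174.4 and 174.5 CPM in KO samples. *Irf9* (chromosome 14, 55603571 to 55610030) was at 95.8, 94.6, 119.1 and 92.5 CPM in WT and at 131.2, 139.0, 153.7 and 142.3 CPM in KO samples. For both genes all KO samples were above all WT samples, and S5 was the lowest of the KO samples.

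Their log2 fold changes were 0.57 (SE 0.12, adjusted p = 0.00547 from edgeR) and 0.49 (SE 0.11, adjusted p = 0.00572 from edgeR). The folds of 1.49 and 1.41 were both under the threshold of 1.5. *Irf9* shares 123 exonic bases on the same strand with *Rnf31*, which held 87.1% as many counts. *Irf1* (chromosome 11, 53770014 to 53778374), a factor induced mainly by interferon gamma and the third most abundant of the 46 genes per length, was at 294.2, 243.3, 263.4 and 171.2 CPM in WT and at 220.1, 270.6, 319.6 and 364.9 CPM in KO samples. The groups overlapped broadly, with S4 the lowest and S8 the highest sample (log2 fold change 0.27, SE 0.16, adjusted p = 0.32 from edgeR). *Irf7*, which amplifies type I interferon, was at -0.13 ± 0.18.

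The ISG15 system showed the largest single change of the module. *Usp18* (chromosome 6, 121245906 to 121270917) encodes the protease that removes the ubiquitin-like ISG15 from proteins and that also blocks the type I interferon receptor as a feedback inhibitor. It was at 28.2, 22.6, 19.2 and 20.9 CPM in WT and at 44.7, 59.3, 74.8 and 57.9 CPM in KO samples. Even S5, the lowest KO sample, was above the highest WT sample by more than the spread of the WT samples. The log2 fold change was 1.38 (a fold of 2.60, SE 0.17, adjusted p = 4.69e-05 from edgeR, exact permutation p = 0.0286).

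*Isg15*, whose promoter holds 3 ISRE core matches, did not pass the test. It was at 39.2, 45.3, 35.5 and 33.0 CPM in WT and at 17.9, 32.3, 40.7 and 58.1 CPM in KO samples. The KO samples were on both sides of WT, with S5 the lowest and S8 the highest of all 8 (log2 fold change -0.03, SE 0.25, adjusted p = 0.96 from edgeR).

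**Figure D3:**
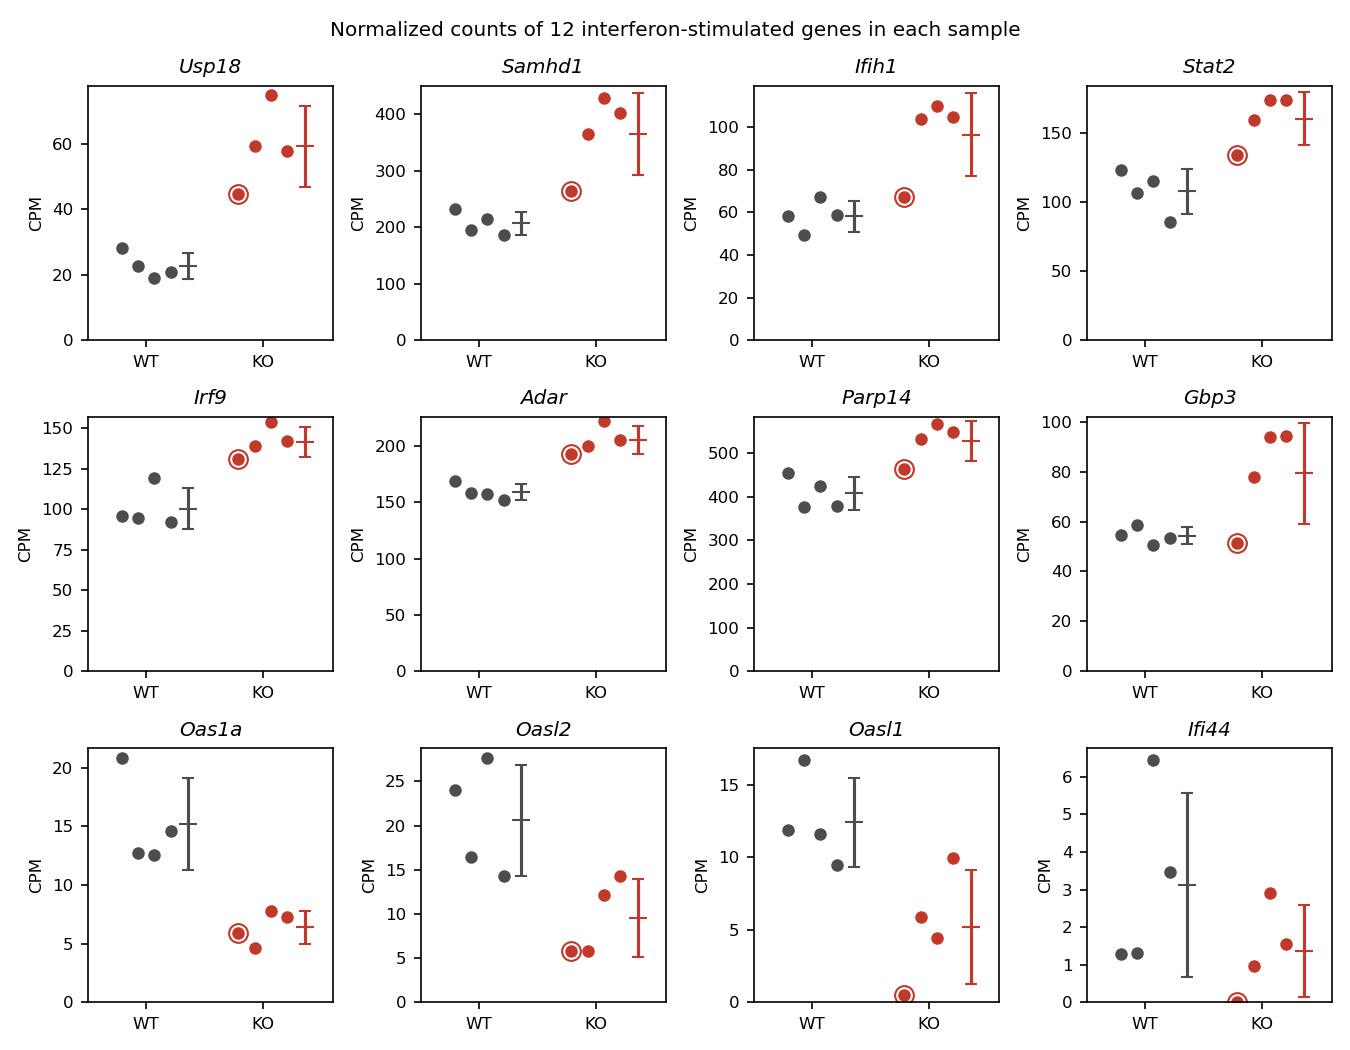
TMM-normalized CPM (y axis, from 0) of 12 genes in each WT (gray) and KO (red) sample, as points, with the mean and SD of the 4 samples beside them. S5 is circled. In *Usp18*, *Samhd1*, *Ifih1*, *Stat2*, *Irf9*, *Adar* and *Parp14* all KO points lie above all WT points, and in *Oas1a* below.

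Of the 15 antiviral effectors, 1 was called higher and none was called lower (2.91% and 1.99% of all genes were). A log2 fold change below 0 was found in 10 of 15, while 48.6% of all genes lay above 0. *Samhd1* (chromosome 2, 157097533 to 157135265) encodes the enzyme that degrades nucleotides and thereby limits viral reverse transcription. It was at 232.3, 194.6, 214.8 and 185.7 CPM in WT and at 264.3, 364.0, 429.2 and 402.2 CPM in KO samples. S5 was again the lowest KO sample and still above WT (log2 fold change 0.82, SE 0.13, adjusted p = 5.35e-04 from edgeR, exact permutation p = 0.0286).

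Several classical type I interferon targets among the effectors had log2 fold changes below 0 without passing the test. *Ifit1*, *Ifit2* and *Ifit3*, which bind foreign RNA at its 5′ end or partner such proteins, had log2 fold changes of -0.49 ± 0.24, -0.37 ± 0.17 and -0.66 ± 0.33 (SE, adjusted p = 0.213, 0.189 and 0.234 from edgeR). *Ifi44* (chromosome 3, 151730922 to 151749960), the least abundant of the 46 genes, was at 1.28, 1.31, 6.45 and 3.46 CPM in WT and at 0, 0.97, 2.92 and 1.55 CPM in KO samples. The 0 in S5 allows up to 0.197 CPM, and the groups overlapped (log2 fold change -1.19, SE 0.87, adjusted p = 0.451 from edgeR). *Mx1* (-0.06 ± 0.22) and *Mx2* (0.28 ± 0.23), which encode dynamin-like antiviral GTPases, lay near 0.

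*Ifi27l2a* (chromosome 12, 103442167 to 103443680) was the most abundant of the 46 genes per length, whose WT means began at 0.51 RPKM (*Ifi44*), at 148.9 ± 21.5 RPKM in WT and 204.2 ± 70.6 RPKM in KO samples (SD, n = 4). It was at 55.04, 68.8, 74.3 and 77.6 CPM in WT and at 57.0, 93.3, 136.8 and 91.1 CPM in KO samples. S5 lay within WT and the other 3 KO samples above it (log2 fold change 0.46, SE 0.19, adjusted p = 0.152 from edgeR), and without S5 the adjusted p was 0.0139. The remaining effectors, *Rsad2*, *Cmpk2*, *Isg20*, *Bst2*, *Rtp4*, *Ifi35* and *Xaf1*, had log2 fold changes between -0.63 and 0.10 and did not pass the test.

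Of the 10 interferon-induced GTPases, which attack the vacuoles of intracellular pathogens and respond strongly to interferon gamma, 9 had a log2 fold change above 0 (48.6% of all genes had) and 1 was higher at an adjusted p under 0.05 (6.31% of all genes were). *Gbp3* (chromosome 3, 142560026 to 142573209) was at 54.5, 58.7, 50.7 and 53.5 CPM in WT and at 51.4, 77.7, 93.6 and 94.4 CPM in KO samples. S5 was level with WT and the other 3 KO samples were clearly above it (log2 fold change 0.55, SE 0.16, adjusted p = 0.0361 from edgeR). Its adjusted p was 0.00107 without S5 and 0.0659 to 0.123 without any other sample. *Igtp* (chromosome 11, 58199556 to 58207591), second in abundance per length, was at 180.6, 190.5, 174.5 and 147.6 CPM in WT and at 165.1, 211.6, 220.0 and 289.6 CPM in KO samples.

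*Igtp* showed the same arrangement, with S5 within WT and S6 to S8 above it (log2 fold change 0.35, SE 0.14, adjusted p = 0.12 from edgeR). *Igtp* shares 162 exonic bases with *Irgm2* on the same strand. *Gbp2*, *Gbp4*, *Gbp5*, *Gbp7*, *Irgm1*, *Tgtp1* and *Ifi47* had log2 fold changes between 0.06 and 0.52, and *Iigp1* was at -0.45 ± 0.34. Counts of the guanylate-binding proteins and of *Tgtp1* are uncertain, because near-identical copies can divide reads.

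*Parp14* (chromosome 16, 35832874 to 35871544), an ADP-ribosyltransferase induced by interferon, was the most highly counted gene of the module. It was at 454.1, 375.3, 424.3 and 377.7 CPM in WT and at 463.9, 532.2, 566.7 and 547.6 CPM in KO samples. The groups did not overlap, though S5 exceeded S1 only slightly (log2 fold change 0.37, SE 0.10, adjusted p = 0.0194 from edgeR). Its adjusted p was 0.0501 to 0.0823 when S2, S4, S6 or S7 was left out. Its relatives in function, *Parp9* and *Dtx3l*, which form a complex and overlap at their starts on opposite strands, were at 0.21 ± 0.10 and -0.03 ± 0.14 and did not pass the test.

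The KO samples differed among themselves in these genes more than the WT samples did. S5 was the lowest of the 4 KO samples in 43 of the 46 genes (93.5%, against 28.2% of all genes tested), with *Oas1a*, *Bst2* and *Tgtp1* as the exceptions. It was the lowest of all 8 samples in 21 of the 46 (45.7%, against 17.1% of all genes). At the other end, S8 was the highest of 8 in 19 genes (41.3%, against 8.97%) and S7 in 15 genes (32.6%, against 11.9%). The SD of log2 CPM was larger in KO than in WT samples for 39 of the 46 genes (84.8%, against 51.5% of all genes), with a median SD of 0.37 in KO and 0.23 in WT samples. Over all genes the median SD was 0.31 in KO and 0.30 in WT samples. Without S5 the median KO SD was 0.25 for the 46 genes and 0.27 for all genes. WT samples joined 2 mice each and KO samples held 1, so pooling and genotype cannot be told apart in this comparison of spreads.

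**Figure D4:**
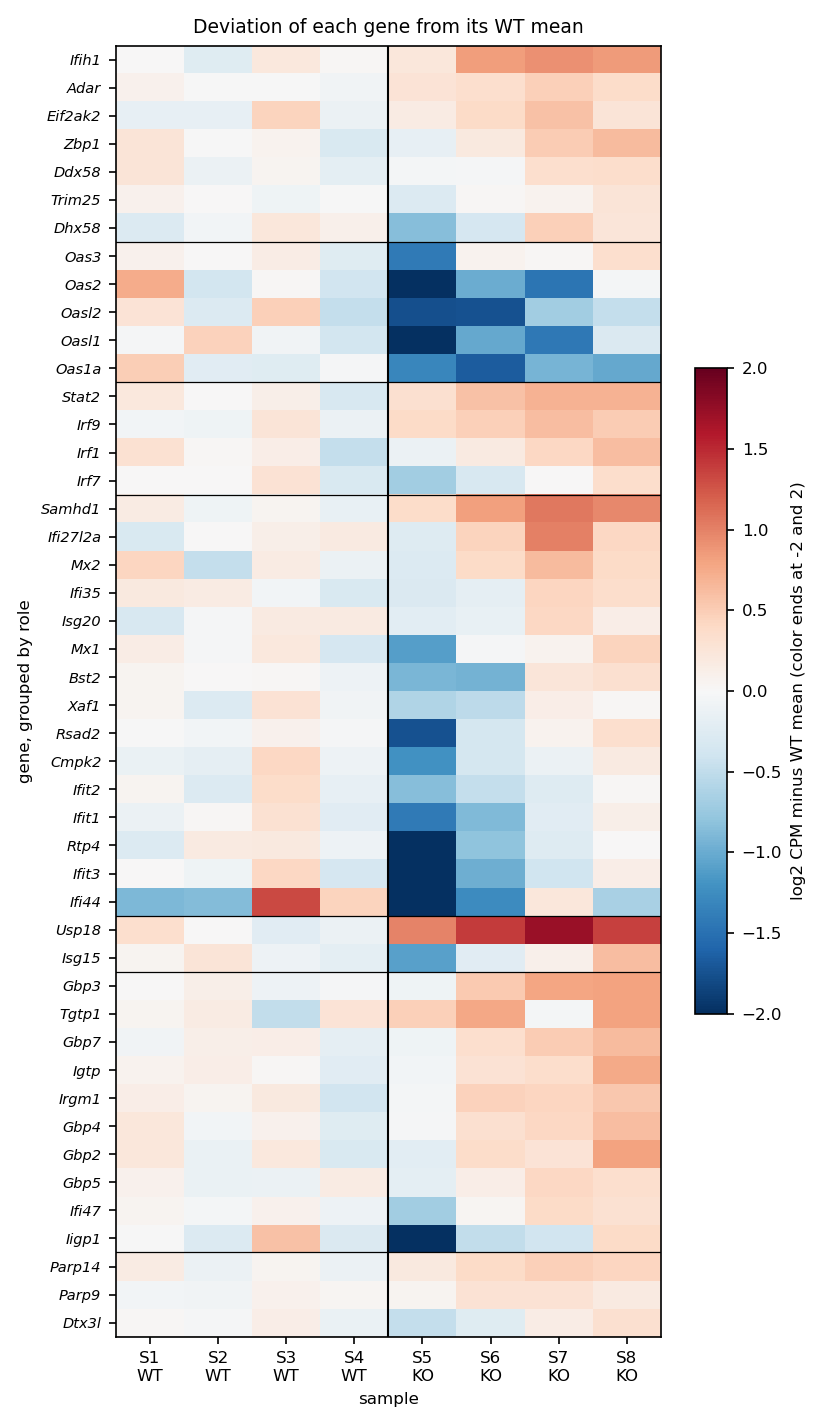
Deviation of each gene's log2 CPM from its WT mean (color, ending at -2 and 2) in each sample (columns) for the 46 genes grouped by role (rows). S5 is blue across the OAS genes and many effectors, while *Usp18*, *Samhd1* and *Ifih1* are red in all 4 KO samples.

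The depth of the drop in S5 depended on the gene. The following genes were chosen after their values were seen. *Ifit3* was at 56.8 to 94.7 CPM in the 4 WT samples and at 13.6, 36.4, 54.1 and 78.6 CPM in S5 to S8. *Rsad2*, which encodes viperin, an enzyme that makes a chain-terminating nucleotide, was at 35.0 to 38.8 CPM in WT and at 10.8, 28.5, 38.2 and 46.04 CPM in S5 to S8. *Oas3* was at 93.6 to 123.6 CPM in WT and at 41.4, 117.0, 112.8 and 139.9 CPM in S5 to S8. In each of these genes S5 was far below every other sample and S8 was within or above WT.

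In 9 of the 46 genes S5 was more than 1 log2 unit below the next lowest KO sample (19.6%, against 3.61% of all genes), and 3 of these 9 were OAS genes and 5 were effectors. In the 7 genes with every KO sample above every WT sample, S5 minus the lowest other KO sample was -0.62 (*Ifih1*) to -0.05 (*Adar*) log2 units. The median of this gap was -0.38 over the 46 genes. Averaged by role and relative to WT, S5 was at -2.36 log2 units for the OAS genes, -1.18 for the effectors and -0.31 for the GTPases, but at -0.10 for the sensors and -0.03 for the STAT and IRF genes. The largest drops in these means rest on few counts in S5. They are *Oasl1* (-4.24, 8 counts) and *Oas2* (-3.06, 23 counts) among the OAS genes and *Ifi44* (-4.39, 0 counts) among the effectors. S8 was at -0.30 for the OAS genes, 0.21 for the effectors, 0.60 for the GTPases, 0.42 for the sensors and 0.55 for the STAT and IRF genes. The OAS mean was the lowest of the 7 roles in every KO sample.

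**Figure D5:**
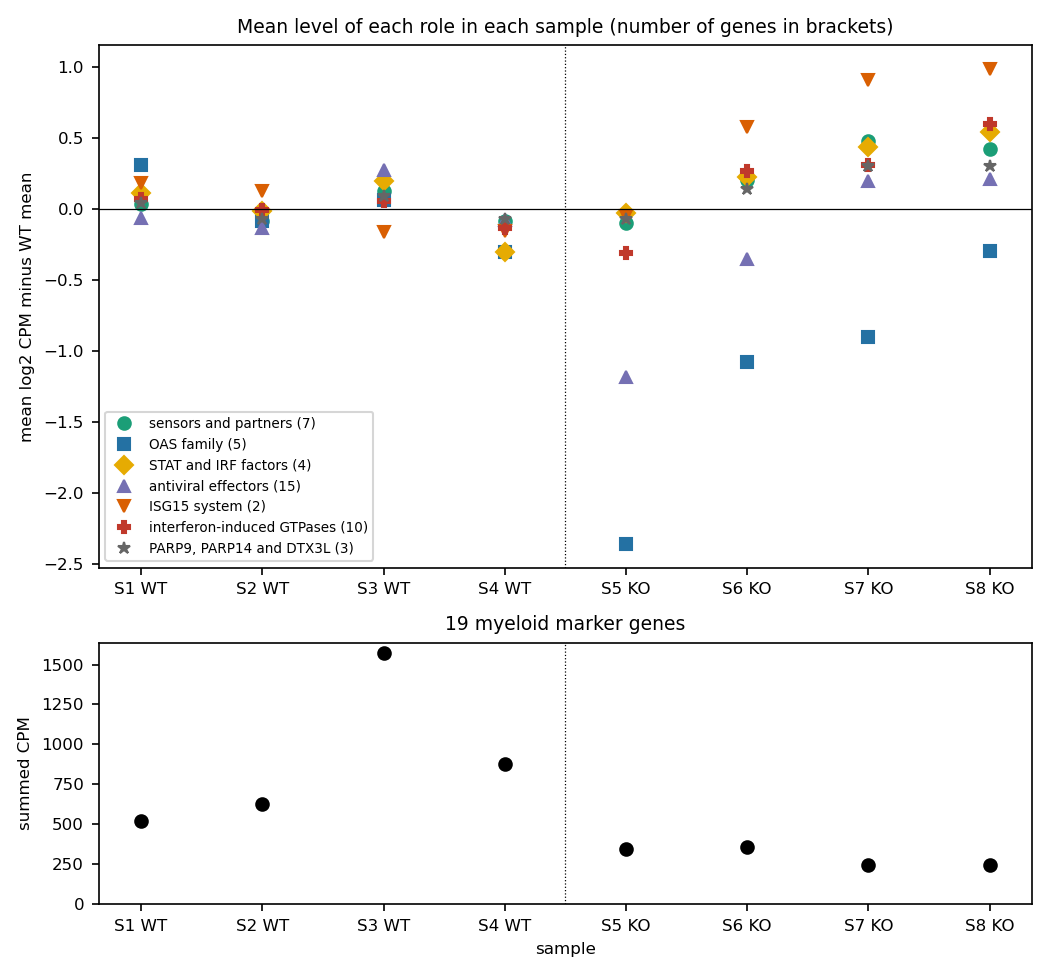
Upper plot, mean log2 CPM of each role minus its WT mean (y axis) in samples S1 to S8 (x axis), with WT left and KO right of the dotted line. Lower plot, summed CPM of 19 myeloid marker genes in the same samples, between 519 and 1569 in WT and between 245 and 360 in KO samples.

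Without S5, 13 of the 46 genes were higher at an adjusted p under 0.05 (28.3%, against 5.46% of all genes) and 1 was lower (*Oas1a*, against 4.42% of all genes). A log2 fold change above 0 was then found in 33 of 46, against 48.4% of all genes. *Gbp3* and *Stat2* then passed both the fold and the adjusted p of 0.01, whereas *Oas1a* missed the latter. *Ifi27l2a*, *Gbp4*, *Gbp7*, *Igtp* and *Irgm1* joined the genes with an adjusted p under 0.05. Every KO sample then lay above every WT sample in 15 of 46 genes (32.6%, against 10.8% of all genes). S5 was left out after its values were seen, and nothing in the labels sets it apart. It was the lowest KO sample in 93.5% of the 46 genes and in 28.2% of all genes. Leaving it out therefore raises KO levels in these genes more often than over all genes, and the shares without S5 carry that choice.

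Genes upstream and around the module were counted from lists set up alongside it. Of 18 interferon genes, 1 passed the filter on low counts. *Ifng*, the cytokine of activated T cells, was at 277.4, 291.6, 295.9 and 453.8 CPM in WT and at 389.5, 479.5, 460.2 and 519.7 CPM in KO samples. S4 lay within the KO range and the other WT samples below it (log2 fold change 0.49, SE 0.14, adjusted p = 0.0331 from edgeR). *Ifnz* had 30 counts in all (5, 10 and 11 in S2, S3 and S4, and 4 in S8). *Ifnb1* had 17 counts in all, of which 14 were in S1, *Ifna1* and *Ifnab* had 3 counts each and the other *Ifna* genes had 0.

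Of 11 receptor and JAK pathway genes, 1 was higher and 1 lower at an adjusted p under 0.05 (6.31% and 4.98% of all genes were). *Ifnar1*, a chain of the type I receptor, was at 156.1 to 196.4 CPM in WT and 204.9 to 234.1 CPM in KO samples (log2 fold change 0.36, SE 0.10, adjusted p = 0.0268 from edgeR). *Ifngr2*, a chain of the interferon gamma receptor, was at 2.44, 5.56, 14.8 and 4.54 CPM in WT and at 0.20, 1.05, 0.33 and 1.06 CPM in KO samples (log2 fold change -3.32, SE 0.65, adjusted p = 0.00269 from edgeR). Its highest value was in S3, the sample with the highest myeloid sum. Of 18 tested adaptors and other sensors, 1 was higher and 2 were lower by the same rule (6.31% and 4.98% of all genes were). *Tlr7* rose (7.69 ± 3.00 CPM in WT and 22.1 ± 5.70 CPM in KO samples, adjusted p = 0.00103 from edgeR). *Tlr9* fell (8.98 ± 3.88 and 2.13 ± 0.78 CPM, SD, n = 4, adjusted p = 0.00331 from edgeR). *Mov10* also fell (84.54 ± 13.16 and 63.95 ± 5.20 CPM, log2 fold change -0.40, adjusted p = 0.0474 from edgeR).

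Of 59 further interferon-stimulated genes tested, 5 were called higher and 3 lower, against 2.91% and 1.99% of all genes. *Ifitm1*, which blocks viral entry, rose from 66.8 ± 24.0 CPM to 400.3 ± 84.9 CPM (SD, n = 4, log2 fold change 2.59, adjusted p = 5.85e-07 from edgeR). *Ifitm2*, *Gbp6*, *Tgtp2* and *Irgm2* were also called higher, with log2 fold changes of 1.26, 0.78, 0.71 and 0.61. *Slfn5* (log2 fold change -1.17, adjusted p = 3.73e-05 from edgeR) and the chemokine genes *Cxcl9* (-2.10) and *Cxcl10* (-1.98) were called lower. At an adjusted p under 0.05, 7 of the 59 were higher and 5 lower, against 6.31% and 4.98% of all genes. That rule added *Aim2* (log2 fold change 0.56) and *Slfn8* (0.57) as higher, and *Ly6e* (-0.56) and *Ifit3b* (-1.12) as lower. Among the WT samples *Cxcl9* was highest in S3 (36.2 CPM) and *Cxcl10* was lowest there (14.1 CPM).

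Of 12 genes that make small RNAs from dsRNA or hairpins (*Dicer1*, *Drosha* and their partners) or silence targets with them (the Argonautes and their partners), 1 was called lower, against 1.99% of all genes. *Ago4* had 29, 27, 39 and 22 counts in WT and 0 counts in all 4 KO samples, which is at least 44.3-fold lower when KO is set to 3 counts over the group. The other 11 did not pass either rule.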

How the data were processed

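RNA-seq of sorted CD8+CD44+PD-1+ TILs from 4 WT and 4 KO samples was analyzed. The deposited values are raw counts, which the authors obtained with featureCounts on GENCODE genes after STAR alignment (GRCm38) and left unscaled. How strand was treated in counting is not given in the sources used here. The table numbers its columns, and the first 4 are WT and the last 4 KO by the study's own plot and group means. All 8 columns were used.

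Annotation was GENCODE M21 (same build), with matches for 55154 of 55335 IDs. Promoters came from RefSeq. The groups were compared with edgeR 4.0.16 in R 4.3.3 (filterByExpr, TMM, glmQLFit, glmQLFTest, no covariates). Standard errors (SE) divide the size of the log2 fold change by the root of the test's F. RPKM divides CPM by exon length. Single genes were also compared by exact two-sided permutation over 70 arrangements (log2 CPM, prior count 2). The code was checked on simulated data. Counts of the 12 pairs within groups differed by more than sampling noise, so no sample was counted as a duplicate. Whether samples came from separate experiments is not given, and p-values measure the spread between these samples.

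The 46 genes, the other lists and the markers were chosen with earlier results of these data known. Genes given in full are the called ones, the smallest adjusted p of each role, the 3 highest and 3 lowest fold changes and the 3 highest RPKM, with every gene past an adjusted p of 0.05. A further gene set for naming is not reported here. Alternatives were other scaling, filters, DESeq2 1.42.0, glmTreat, a myeloid covariate, GC offsets (mgcv 1.9.3) and leaving out samples. The overlap counts under other scaling or samples were added after seeing the data. *Mb21d1*, *Sting1* and *Mnda* were not found by symbol and were not analysed here.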

Additional observations from a re-analysis of the deposited data

Results flagged for a closer look

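Within each group of 4 samples, the gap of the highest or lowest log2 CPM to its nearest neighbor was compared with the range of the group, for 92 groups (46 genes in WT and in KO samples). In 4 groups a sample stood far from the others, where chance gives about 1 in 20 groups, or 4.6. *Ifih1* in S5 was at 6.07 log2 CPM against 6.70 to 6.78 in the other KO samples, a gap of 0.888 of the range. *Eif2ak2* in S3 was at 6.15 against 5.54 to 5.58 in the other WT samples (0.933). *Irf9* in S3 was at 6.90 against 6.53 to 6.58 (0.861), and *Cmpk2* in S3 was at 5.53 against 4.93 to 5.01 (0.862). The 3 WT cases are all high values in S3. Since 4 flags are no more than the 4.6 that chance gives, nothing is read from the sample in which they fall.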

How the results depend on the processing

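No paired analysis was possible because the columns of the count table carry no replicate numbers. The sources used here also describe no WT sample as the partner of a KO sample, so it is not known that pairs existed. Other scaling (RLE, upper quartile, library size alone), the filter of 1 CPM in 4 samples and GC offsets kept each count of called genes among the 46 within 1.5 times. Genes with every KO below every WT sample numbered 2 with upper quartile factors and 3 with library size alone, against 1. DESeq2 called 461 genes lower over the whole table and 2 of the 46. Without the filter on low counts, 531 genes were called lower, 5 of the 46 were called lower, and 13 were higher and 9 lower at an adjusted p under 0.05. Testing against the fold threshold with glmTreat left 165 genes higher and 130 lower, and of the 46 it left *Usp18* (1 higher and 0 lower, by either rule). With the mean myeloid marker level in the fit, 28 genes were higher and 2 lower, 0 of the 46 passed either rule in either direction, and their median log2 fold change was -0.327. In that fit *Gbp3*, *Igtp* and *Irf1* changed sign to -0.16, -0.19 and -0.24, and *Ifi44* to 0.23, each with an edgeR adjusted p of 0.901 to 0.991. The score and the genotype cannot be told apart.

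Leaving out each sample gave 199 to 303 genes lower over the whole table. Among the 46, it gave 2 to 5 called higher (5 without S5) and 0 to 2 called lower (0 without S1, S4, S5 or S6). At an adjusted p under 0.05 it gave 5 to 13 higher (13 without S5) and 1 to 6 lower (6 without S8). Every KO sample lay above every WT sample in 7 to 15 genes and below in 1 to 6. Without S5 and S8 together, 0 were called lower, 4 were lower at an adjusted p under 0.05, and 15 genes lay above and 6 below without overlap. *Usp18* kept its call without each sample (log2 fold change 1.25 to 1.5), as did *Samhd1* (0.73 to 0.95). *Ifih1* stayed at 0.65 to 0.87, and *Oas1a* at -1.35 to -1.05. At an adjusted p under 0.05, *Parp14* was lost without S2, S4, S6 or S7 (0.0501 to 0.0823 from edgeR) and *Adar* without S7 (0.0579). Depth sets a limit of 0.106 to 0.25 CPM per sample (3 counts), which *Ifi44* was under in S5.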
